A study of Mus musculus with 16 samples.

Results

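The 10 genes described here are targets of the transcriptional coactivator YAP and its DNA-binding partners of the TEAD family: Ankrd1, Ctgf, Cyr61, Ajuba, Amotl2, Lats2, Axl, Crim1, Nuak2 and Tead1. They were chosen by name, as the rows of the array table that carry these symbols, and each matched 1 of the 22206 annotated transcript clusters measured. Expression was measured in primary fibroblasts grown from tail skin explants of young adult MPS I mice, a model of a lysosomal storage disease in which glycosaminoglycans (GAGs) accumulate because alpha-L-iduronidase is deficient. The cells were exposed for 24 h to 60 or 120 µM genistein (G), to 60 or 120 µM kaempferol (K), or to both flavonoids in equal parts. The 120 µM mixture held 60 µM of each flavonoid and the 60 µM mixture 30 µM of each. The controls were MPS I fibroblasts given the solvent alone, 0.05% DMSO for G and K and 0.1% DMSO for the mixtures. All 8 groups thus carried the same disease genotype, and no cells of healthy mice were among the arrays analysed here. Each group had 2 arrays, 16 in all. The labels call the replicates biological, the methods name 3 repetitions, and the sources used here do not say how many mice gave the cultures, so the p-values measure the spread between these arrays, which may be technical.

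YAP and its paralogue TAZ shuttle between cytoplasm and nucleus. When the Hippo kinases MST and LATS are active, they phosphorylate YAP and TAZ and hold them in the cytoplasm; when the cascade is idle, YAP and TAZ enter the nucleus, bind TEAD factors and switch on genes of growth, adhesion and matrix. In fibroblasts this output is known to follow cell spreading, stiffness of the substrate and actin tension, and several of the targets are themselves brakes on YAP.

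The values are log2 signals, so that a difference of 1 is a doubling of signal, and signals of different genes come from different probes and are not compared with each other. Replicate arrays correlated at 0.995 to 0.997, and the upper limit of background, taken as the 95th percentile of negative controls, stood at 10.4 to 10.8 and was exceeded by 22.9% to 27.1% of clusters. Of 10 fibroblast markers, 8 or 9 lay above that limit on both arrays of each group, among them Col1a1, Col1a2, Vim and Thy1, while Lum did not. The summed fibroblast marker signal was 18.6 to 19.0 on treated arrays and 19.1 to 19.2 on DMSO arrays (log2). Of the 10 markers, 0 fell in 60 µM G (4.48% of all clusters fell), 7 in 120 µM G (7.8%) and 2 in 60 µM K (4.4%). In each of the other conditions 4 fell (8.0% to 9.48%). Pdgfra alone rose, in 60 µM K, where 5.72% of all clusters rose. Keratinocyte and endothelial markers had no member above the limit. The summed smooth muscle and pericyte signal was 9.93 to 10.9 on treated arrays and 11.4 to 11.7 on DMSO arrays, and the summed adipocyte signal was 7.33 to 9.06 on treated arrays and 9.77 to 9.91 on DMSO arrays. Of the markers in the first of these sums, Smtn fell in 5 conditions and Cspg4 in 120 µM G. Cspg4 was at log2 -1.13 to -0.20 over the 6 conditions. Myh11, Des and Rgs5 stayed at or below the median of the negative controls in all 8 groups. The second sum rested on Fabp4, a fatty acid carrier, which fell in all 6 conditions, while Adipoq, Plin1 and Cidec stayed at or below that median in all 8 groups. The summed leukocyte signal was 11.5 to 11.6 on arrays of 120 µM G and 8.92 to 8.99 on arrays of 0.05% DMSO, where Cd68, a lysosomal protein of phagocytes, carried the difference and Ptprc, Adgre1, Csf1r and Cd3e stayed at or below the median of the negative controls in all 8 groups. The part of these shifts in the results below was not tested, and in bulk RNA fewer cells of a type and less RNA per cell cannot be told apart.

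TEAD factors bind the core motif GGAATG, known as the MCAT motif, which reads CATTCC on the opposite strand. RefSeq promoters (build GRCm38.p6, 250 bases before and 50 bases from the transcription start) were at hand for 7 of the 10 genes, with a second one for Lats2; Ctgf, Nuak2 and Tead1 were not among them. The motif, searched on both strands as these 6 letters, stood in at least 1 promoter of all 7 genes (7 of 8 promoters), and in 14.7% of the 32851 promoters in the table. In lists of related genes it stood in 1 of 9 further YAP and TEAD targets with a promoter in the table, in 6 of 8 YAP, TAZ, TEAD and VGLL factors and in 5 of 18 Hippo genes. It also stood in 4 of 9 genes of the list of serum response factor, its cofactors and targets. Of other TAM receptors and ligands 0 of 4 held it, and of other CCN genes 0 of 1. Below are 5 promoters whose genes moved in different ways, 3 that fell (Cyr61, Axl, Ajuba) and 2 that rose in 120 µM G (Crim1, Amotl2). They are written 5′ to 3′ along the gene, with each GGAATG or CATTCC in capitals.
Cyr61 (chr3:145649936-145650235, minus strand): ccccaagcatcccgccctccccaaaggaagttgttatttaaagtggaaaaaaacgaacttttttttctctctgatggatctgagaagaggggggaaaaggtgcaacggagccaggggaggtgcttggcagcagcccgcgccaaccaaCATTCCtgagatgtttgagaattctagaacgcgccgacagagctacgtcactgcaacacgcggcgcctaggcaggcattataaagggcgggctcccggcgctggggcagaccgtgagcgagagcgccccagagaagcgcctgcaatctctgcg
Axl (chr7:25788684-25788983, minus strand): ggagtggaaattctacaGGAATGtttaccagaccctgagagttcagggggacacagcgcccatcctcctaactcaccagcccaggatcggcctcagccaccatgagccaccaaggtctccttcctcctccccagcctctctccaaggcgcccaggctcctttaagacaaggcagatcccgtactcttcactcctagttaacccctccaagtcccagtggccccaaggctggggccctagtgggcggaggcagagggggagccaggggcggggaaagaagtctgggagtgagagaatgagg
Ajuba (chr14:54577612-54577911, minus strand): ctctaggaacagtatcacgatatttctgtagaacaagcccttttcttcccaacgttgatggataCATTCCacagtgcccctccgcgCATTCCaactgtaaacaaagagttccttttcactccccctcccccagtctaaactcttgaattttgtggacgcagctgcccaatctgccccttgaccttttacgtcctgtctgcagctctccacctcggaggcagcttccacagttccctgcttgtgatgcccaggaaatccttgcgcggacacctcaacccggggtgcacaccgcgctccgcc
Crim1 (chr17:78199998-78200297, plus strand): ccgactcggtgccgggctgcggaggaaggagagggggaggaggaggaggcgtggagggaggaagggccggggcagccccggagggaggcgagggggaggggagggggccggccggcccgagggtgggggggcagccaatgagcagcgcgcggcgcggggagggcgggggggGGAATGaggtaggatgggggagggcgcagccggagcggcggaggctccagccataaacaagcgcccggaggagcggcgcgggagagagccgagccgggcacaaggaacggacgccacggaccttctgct
Amotl2 (chr9:102717554-102717853, plus strand): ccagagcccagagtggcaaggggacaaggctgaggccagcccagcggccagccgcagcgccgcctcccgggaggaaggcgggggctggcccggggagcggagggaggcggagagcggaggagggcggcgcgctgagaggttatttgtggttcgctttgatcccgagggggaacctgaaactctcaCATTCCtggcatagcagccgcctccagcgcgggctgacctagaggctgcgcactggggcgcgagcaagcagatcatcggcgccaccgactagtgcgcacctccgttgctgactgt

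Counted from the start site, the capitals begin at base -103 in the promoter of Cyr61, at -233 in that of Axl, at -186 and -164 in that of Ajuba, at -79 in that of Crim1 and at -65 in that of Amotl2. In the promoters not printed, the motif began at -210 and -123 for Ankrd1 and at 4 for Lats2. Holding more than 1 copy, as Ankrd1 and Ajuba did, was seen in 1.36% of all promoters. A CArG box, the motif of serum response factor (SRF), was found in 0 of the 8 promoters and in 1.63% of all. Genes that fell and genes that rose both held the letters, which describe the sequence and not a bound site.

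**Figure D1:**
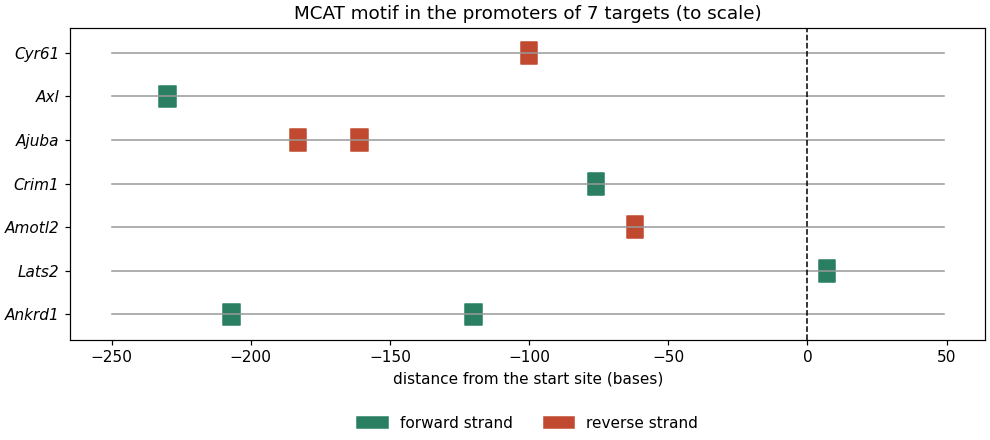
Position of the MCAT motif (GGAATG or CATTCC) relative to the transcription start (x axis, bases) in the first RefSeq promoter of 7 target genes, with boxes for GGAATG (forward strand, green) and CATTCC (reverse strand, red). The motifs begin between base -233 and base 4; the second Lats2 promoter, which holds none, is not drawn.

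Against DMSO, Ctgf, Axl, Cyr61 and Ajuba were the targets that fell, in 5, 5, 4 and 3 of the 6 conditions. Crim1, Amotl2 and Lats2 passed the test as higher in 120 µM G only, and Tead1 in the 120 µM mixture only. Under other settings Crim1 and Amotl2 also passed in 60 µM G, Amotl2 in the 120 µM mixture, and Tead1 in the 60 µM mixture and 60 µM K. Ankrd1 and Nuak2 passed the test in none, although each did under other settings given with their values. A gene counted as changed when its limma p, adjusted by Benjamini-Hochberg for all 22206 clusters tested, was under 0.05. In 60 µM G 2 of the 10 genes fell and none rose, where 4.48% of all clusters fell and 3.84% rose. In 120 µM G 1 fell and 3 rose (7.8% of clusters fell and 7.94% rose). In 60 µM K 3 fell and none rose (4.4% fell and 5.72% rose), and in 120 µM K 3 fell and none rose (8.0% fell and 8.98% rose). In the 60 µM mixture 4 fell and none rose (8.57% fell and 9.23% rose), and in the 120 µM mixture 4 fell and 1 rose (9.48% fell and 10.1% rose). By the fold change criterion of the study, above 1.3 or below 0.7 and without a test, 7 of the 10 passed in 60 µM G (20.3% of clusters), 5 in 120 µM G (24.0%), 5 in 60 µM K (19.2%), 5 in 120 µM K (25.3%), 5 in the 60 µM mixture (27.2%) and 7 in the 120 µM mixture (28.5%). The median log2 change of the 10 genes was -0.32 in 60 µM G, -0.03 in 120 µM G, -0.43 in 60 µM K, -0.54 in 120 µM K, -0.50 in the 60 µM mixture and -0.50 in the 120 µM mixture, beside -0.04 to 0.01 over all clusters. The 6 conditions are not independent, because the 4 of G and K share the 0.05% DMSO arrays and both mixtures share the 0.1% DMSO arrays. Between 0.1% and 0.05% DMSO none of the 10 differed (0.0045% of clusters did), and 0 of them had an unadjusted p under 0.05.

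**Figure D2:**
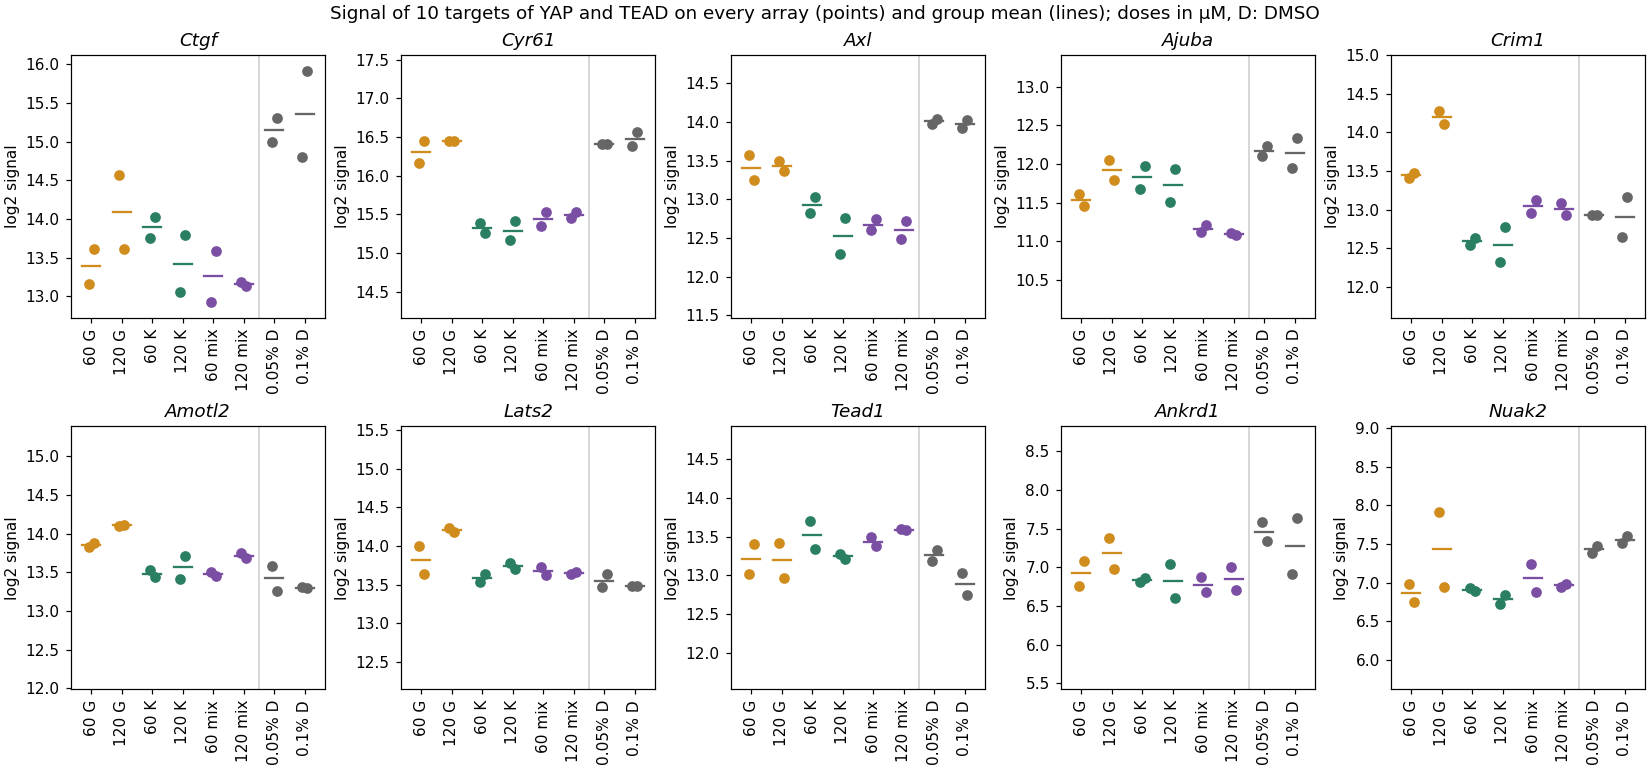
Log2 signal (y axis) of each of the 10 target genes in the 8 groups, with 1 point per array and a line at the mean of 2 arrays. All treated arrays of Ctgf lie below the 4 DMSO arrays, Cyr61 is low only in the groups that received K, and Crim1 is highest in 120 µM G.

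Ctgf (RefSeq symbol Ccn2, chr10:24595442-24598683) encodes connective tissue growth factor, a secreted matricellular protein that promotes matrix deposition. On the arrays its log2 signal was 13.17 and 13.61 in 60 µM G, 14.57 and 13.61 in 120 µM G, 13.76 and 14.03 in 60 µM K, 13.05 and 13.79 in 120 µM K, 12.93 and 13.59 in the 60 µM mixture and 13.19 and 13.13 in the 120 µM mixture, against 14.99 and 15.30 in 0.05% DMSO and 14.81 and 15.91 in 0.1% DMSO. Every treated array was thus below every DMSO array. Ctgf had the widest range of group means of the 10 genes (2.20), and also the largest SD within a group (0.78, n = 2, in 0.1% DMSO). The changes were -1.76 in 60 µM G (95% interval -2.56 to -0.95, 0.296-fold, limma adjusted p = 0.0106), -1.25 in 60 µM K (-2.06 to -0.45, 0.42-fold, adjusted p = 0.0489) and -1.72 in 120 µM K (-2.53 to -0.92, 0.303-fold, adjusted p = 0.00523). In the mixtures they were -2.10 at 60 µM (-2.90 to -1.29, 0.234-fold, adjusted p = 0.00157) and -2.20 at 120 µM (-3.00 to -1.40, 0.218-fold, adjusted p = 0.000952). In 120 µM G the value was -1.06 (-1.86 to -0.25, limma adjusted p = 0.0746). The calls for both mixtures held without any 1 array. The call for 60 µM G was lost without 60 µM G replicate 1 or 0.05% DMSO replicate 2 (limma adjusted p up to 0.0867), that for 120 µM K without 120 µM K replicate 1 or 0.05% DMSO replicate 2 (up to 0.0705), and that for 60 µM K without any 1 of its 4 arrays (0.106 to 0.24), after a further quantile normalization (0.0627) and with a robust prior (0.0526), while 120 µM G passed without its replicate 1 (0.0305) and also among the brighter clusters, with a variance trend, against 0.1% DMSO and against pooled DMSO (0.00988 to 0.0386).

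Cyr61 (RefSeq symbol Ccn1, chr3:145646971-145649985) encodes a secreted CCN protein that binds integrins and is a rapidly induced target of YAP. Log2 signals were 16.16 and 16.45 in 60 µM G, 16.45 and 16.45 in 120 µM G, 15.39 and 15.27 in 60 µM K, 15.16 and 15.41 in 120 µM K, 15.35 and 15.54 in the 60 µM mixture and 15.45 and 15.53 in the 120 µM mixture, against 16.41 and 16.41 in 0.05% DMSO and 16.38 and 16.56 in 0.1% DMSO. The 8 arrays of cells that received K lay in a band of their own below the 4 arrays of G and the 4 of DMSO, and the arrays of G overlapped those of DMSO. Cyr61 fell to 0.472-fold in 60 µM K (log2 -1.08, limma adjusted p = 0.000324), 0.46-fold in 120 µM K (-1.12, adjusted p = 0.000122), 0.49-fold in the 60 µM mixture (-1.03, adjusted p = 0.000335) and 0.507-fold in the 120 µM mixture (-0.98, adjusted p = 0.000388). The differences were -0.10 in 60 µM G and 0.04 in 120 µM G, with limma adjusted p of 0.748 and 0.902. All 4 calls held without any 1 array and under each other setting run.

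Axl (chr7:25756500-25788924) encodes a receptor tyrosine kinase of the TAM family that is activated by the ligand Gas6. Its log2 signal was 13.57 and 13.24 in 60 µM G, 13.50 and 13.36 in 120 µM G, 12.83 and 13.03 in 60 µM K, 12.29 and 12.76 in 120 µM K, 12.60 and 12.74 in the 60 µM mixture and 12.48 and 12.72 in the 120 µM mixture, against 13.97 and 14.04 in 0.05% DMSO and 13.92 and 14.02 in 0.1% DMSO. The arrays fell into 3 levels without overlap, with K and the mixtures lowest, G between, and DMSO highest. Axl fell to 0.474-fold in 60 µM K (log2 -1.08, limma adjusted p = 0.00124), 0.358-fold in 120 µM K (-1.48, adjusted p = 4.93e-05), 0.407-fold in the 60 µM mixture (-1.30, adjusted p = 0.00021) and 0.387-fold in the 120 µM mixture (-1.37, adjusted p = 0.000103), and these calls held without any 1 array. In G the change was smaller, 0.671-fold at 120 µM (-0.58, limma adjusted p = 0.0396) and -0.60 at 60 µM, which did not pass (adjusted p = 0.0523) but did after a further quantile normalization, among the brighter clusters, with a variance trend and against pooled DMSO (0.00554 to 0.0457). The call for 120 µM G did not survive leaving out any 1 of its 4 arrays (limma adjusted p 0.085 to 0.194), after centring on array medians (0.0547) and in a fit of the groups compared alone (0.0625).

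Ajuba (chr14:54567469-54577661) encodes a LIM domain protein of adherens junctions that binds LATS kinases and restrains them. Its log2 signal was 11.61 and 11.46 in 60 µM G, 12.06 and 11.79 in 120 µM G, 11.68 and 11.97 in 60 µM K, 11.51 and 11.94 in 120 µM K, 11.12 and 11.21 in the 60 µM mixture and 11.11 and 11.09 in the 120 µM mixture, against 12.10 and 12.24 in 0.05% DMSO and 11.95 and 12.33 in 0.1% DMSO. The 4 arrays of the mixtures were the lowest of the 16. Ajuba fell to 0.508-fold in the 60 µM mixture (log2 -0.98, limma adjusted p = 0.0021) and 0.486-fold in the 120 µM mixture (-1.04, adjusted p = 0.00113), with or without any 1 array. In 60 µM G it fell to 0.644-fold (-0.63, limma adjusted p = 0.0467), which did not hold on leaving out any 1 array (0.0962 to 0.216), against 0.1% DMSO (0.0541) and in a fit of both groups alone (0.091). In 120 µM G the difference was -0.24, in 60 µM K -0.34 and in 120 µM K -0.44, and none of these passed (limma adjusted p 0.121 to 0.453), although 120 µM K did with a variance trend (0.0494).

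**Figure D3:**
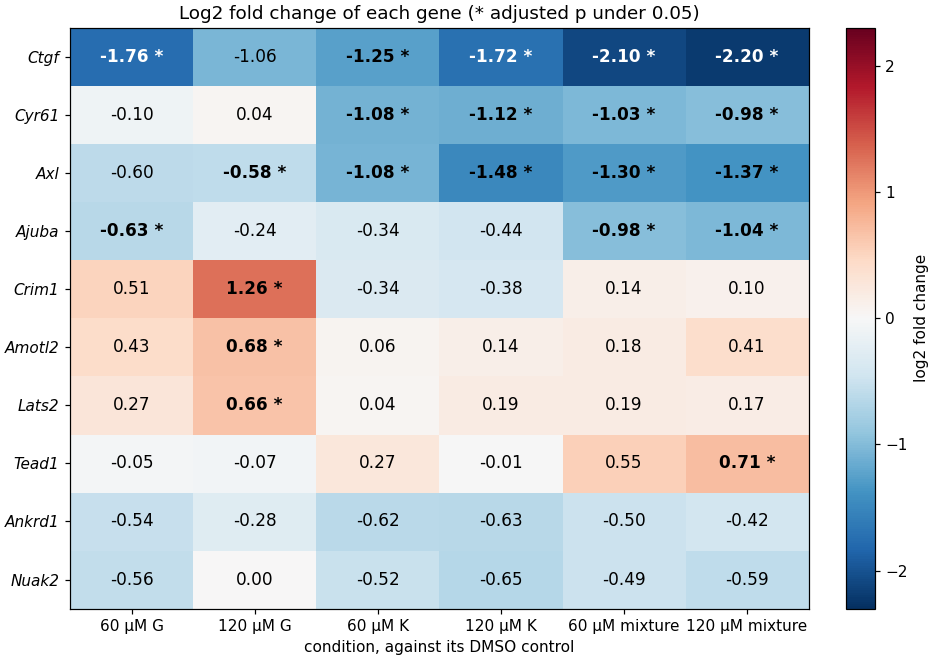
Log2 change against DMSO, printed and coloured (blue lower, red higher), of each target gene (rows) in the 6 conditions (columns), with an asterisk where the limma adjusted p is under 0.05. Ctgf reaches -2.20 in the 120 µM mixture, Cyr61 stays near 0 in G and near -1 in K and the mixtures, and Crim1 rises to 1.26 in 120 µM G.

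Crim1, Amotl2 and Lats2 rose in 120 µM G. Crim1 (chr17:78200233-78376592) encodes a membrane protein with cysteine-rich repeats that binds bone morphogenetic proteins. Its log2 signal was 13.40 and 13.48 in 60 µM G, 14.27 and 14.11 in 120 µM G, 12.54 and 12.64 in 60 µM K, 12.33 and 12.77 in 120 µM K, 12.95 and 13.13 in the 60 µM mixture and 13.09 and 12.93 in the 120 µM mixture, against 12.93 and 12.93 in 0.05% DMSO and 12.65 and 13.16 in 0.1% DMSO. All 4 arrays of G lay above all DMSO arrays, the mixtures lay within the range of the DMSO arrays, and K lay below 0.05% DMSO. Crim1 rose 2.40-fold in 120 µM G (log2 1.26, 95% interval 0.87 to 1.66, limma adjusted p = 0.000282), with or without any 1 array, and was at 0.51 in 60 µM G (0.12 to 0.91, adjusted p = 0.106), which passed among the brighter clusters, with a variance trend and against pooled DMSO (0.0224 to 0.0466). It was the only one of the 10 genes that passed the test between the doses of G, at 1.68-fold (0.75, limma adjusted p = 0.0401), where 3.54% of all clusters changed. In that step 4 of the 10 had an unadjusted limma p under 0.05, as did 3835 of the 22206 clusters. The step was above 0 in 9 of the 10, with a median of 0.32 beside -0.001 over all clusters. The dose call fell away on leaving out any 1 of the 4 arrays (limma adjusted p 0.0907 to 0.226) and in a fit of both groups alone (0.0937). In 60 µM K Crim1 was at -0.34 and in 120 µM K at -0.38, with limma adjusted p of 0.307 and 0.192.

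Amotl2 (chr9:102717091-102733418) encodes an angiomotin, a junction protein that binds YAP and keeps it out of the nucleus. The log2 signal of Amotl2 was 13.83 and 13.88 in 60 µM G, 14.10 and 14.11 in 120 µM G, 13.53 and 13.43 in 60 µM K, 13.42 and 13.71 in 120 µM K, 13.50 and 13.46 in the 60 µM mixture and 13.75 and 13.68 in the 120 µM mixture, against 13.59 and 13.26 in 0.05% DMSO and 13.30 and 13.30 in 0.1% DMSO. The 4 arrays of G were the highest of the 16. Amotl2 rose 1.6-fold in 120 µM G (log2 0.68, 95% interval 0.37 to 0.99, limma adjusted p = 0.00496), a call that was lost without 0.05% DMSO replicate 2 (0.0702) and in a fit of both groups alone (0.0521). It was at 0.43 in 60 µM G (limma adjusted p = 0.0889) and 0.41 in the 120 µM mixture (adjusted p = 0.0608), neither past the threshold. Each passed under 4 other settings, 60 µM G at 0.0144 to 0.0292 and the mixture at 0.0103 to 0.0431.

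Lats2 (chr14:57689662-57746212) encodes the LATS kinase that phosphorylates YAP and is itself induced by YAP. The arrays gave log2 signals of 14.00 and 13.64 in 60 µM G, 14.23 and 14.18 in 120 µM G, 13.54 and 13.64 in 60 µM K, 13.78 and 13.70 in 120 µM K, 13.72 and 13.62 in the 60 µM mixture and 13.64 and 13.66 in the 120 µM mixture, against 13.47 and 13.64 in 0.05% DMSO and 13.48 and 13.48 in 0.1% DMSO. Both arrays of 120 µM G lay above all others, followed by 60 µM G replicate 1 at 14.00. The rest lay between 13.47 and 13.78. Lats2 rose 1.58-fold in 120 µM G (log2 0.66, limma adjusted p = 0.00576), which was lost without 0.05% DMSO replicate 1 (0.0596). In the other 5 conditions it was between 0.04 and 0.27 above DMSO, with limma adjusted p of 0.287 or more.

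Tead1 (chr7:112679356-112906784) encodes a DNA-binding partner of YAP. Its log2 signal was 13.60 and 13.58 in the 120 µM mixture and 13.49 and 13.38 in the 60 µM mixture, against 13.02 and 12.74 in 0.1% DMSO. It was 13.02 and 13.41 in 60 µM G, 13.42 and 12.97 in 120 µM G, 13.71 and 13.34 in 60 µM K and 13.28 and 13.21 in 120 µM K, against 13.19 and 13.33 in 0.05% DMSO. The arrays of the mixtures lay above those of their own control, while the range of G and K held that of 0.05% DMSO. Tead1 rose 1.63-fold in the 120 µM mixture (log2 0.71, 95% interval 0.30 to 1.11, limma adjusted p = 0.017) and was at 0.55 in the 60 µM mixture (adjusted p = 0.0586), which passed after centring, among the brighter clusters and with a variance trend (0.00968 to 0.0405). Against 0.1% DMSO, 60 µM K passed too (0.64, limma adjusted p = 0.0355). The call was lost without either 120 µM mixture array or 0.1% DMSO replicate 2 (limma adjusted p up to 0.132). The controls themselves differed by -0.38 (0.1% minus 0.05% DMSO, limma adjusted p = 0.57), the largest difference between them among the 10 genes.

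Ankrd1 (chr19:36111965-36119844), a titin-associated regulator of transcription in muscle and one of the YAP targets most used in cultured cells, and Nuak2 (chr1:132316125-132333488), an AMPK-related kinase that acts on actomyosin, were dim. Ankrd1 ranged from 6.61 to 7.64 over the 16 arrays and Nuak2 from 6.73 to 7.91, below the upper limit of background, and each had 1 array at or below the median of the negative controls. Ankrd1 was at -0.54 in 60 µM G, -0.28 in 120 µM G, -0.62 in 60 µM K, -0.63 in 120 µM K, -0.50 in the 60 µM mixture and -0.42 in the 120 µM mixture, with limma adjusted p from 0.0874 to 0.521. Nuak2 was between -0.65 and -0.49 in 5 conditions and at -0.00 in 120 µM G, where its replicates were 7.91 and 6.95, with limma adjusted p from 0.0785 to 0.999. Without 0.1% DMSO replicate 1, Ankrd1 passed the test as lower in the 60 µM mixture (0.0304) and in the 120 µM mixture (0.0424). In 120 µM K, Ankrd1 passed among the brighter clusters (0.0424), and Nuak2 passed there, against 0.1% DMSO, against pooled DMSO and in a fit of both groups alone (0.0224 to 0.0431). Nuak2 also passed in the 120 µM mixture in the last of these fits (0.0478).

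G and K have the same hydroxyphenyl chromenone skeleton, but in G, an isoflavone, the phenyl ring sits on the neighbouring carbon, and K, a flavonol, carries a further hydroxyl group. They were compared at 2 matched doses, 60 and 120 µM, after the same time. At 60 µM, 2 of the 10 genes were lower in K than in G, Cyr61 and Crim1, where 3.39% of all clusters were lower and 4.78% higher. At 120 µM, 4 were lower in K, Cyr61, Crim1, Axl and Amotl2, where 4.57% of clusters were lower and 5.21% higher. None of the 10 was higher in K at either dose.

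Cyr61 was 0.508-fold in K relative to G at 60 µM (log2 -0.98, 95% interval -1.30 to -0.66, limma adjusted p = 0.00118) and 0.446-fold at 120 µM (-1.17, -1.49 to -0.85, adjusted p = 0.000197), with or without any 1 array. Crim1 was 0.554-fold at 60 µM (-0.85, -1.25 to -0.46, limma adjusted p = 0.0119) and 0.32-fold at 120 µM (-1.64, -2.04 to -1.25, adjusted p = 6.26e-05). The 120 µM call for Crim1 held without any 1 array, while the 60 µM call was lost without 60 µM G replicate 2 or either 60 µM K array (up to 0.0911). Axl was 0.534-fold at 120 µM (-0.91, -1.28 to -0.53, limma adjusted p = 0.0045) and at -0.48 at 60 µM (-0.86 to -0.10, adjusted p = 0.119). Amotl2 was 0.687-fold at 120 µM (-0.54, -0.85 to -0.23, limma adjusted p = 0.0288) and at -0.37 at 60 µM (-0.68 to -0.06, adjusted p = 0.139). The 120 µM call for Axl was lost without 120 µM K replicate 1 (0.0618) and in a fit of both groups alone (0.0507), and that for Amotl2 without either 120 µM G array or 120 µM K replicate 1 (up to 0.215) and in that fit (0.146). With a variance trend, Axl (0.0291) and Amotl2 (0.0361) passed at 60 µM too.

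For the other 6 genes the difference between K and G did not pass the test. For Ctgf it was 0.51 at 60 µM (95% interval -0.30 to 1.31) and -0.67 at 120 µM (-1.47 to 0.14), so that both intervals held 0 and differences of more than 1 on the log2 scale. For Lats2 it was -0.23 (-0.54 to 0.08) at 60 µM and -0.46 (-0.77 to -0.16) at 120 µM, with a limma adjusted p of 0.0581 for the second, which passed after a further quantile normalization, among the brighter clusters and with a variance trend (0.00587 to 0.0357). For Ajuba it was 0.29 (-0.10 to 0.68) and -0.20 (-0.59 to 0.19), for Tead1 0.31 (-0.09 to 0.72) and 0.05 (-0.35 to 0.46), and for Ankrd1 -0.09 (-0.60 to 0.42) and -0.35 (-0.86 to 0.16), at 60 and 120 µM. Nuak2 was at 0.04 (-0.46 to 0.55) at 60 µM and -0.65 (-1.15 to -0.14) at 120 µM (limma adjusted p = 0.111), and passed without 120 µM G replicate 2 (0.00315), which was the lower of that pair.

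**Figure D4:**
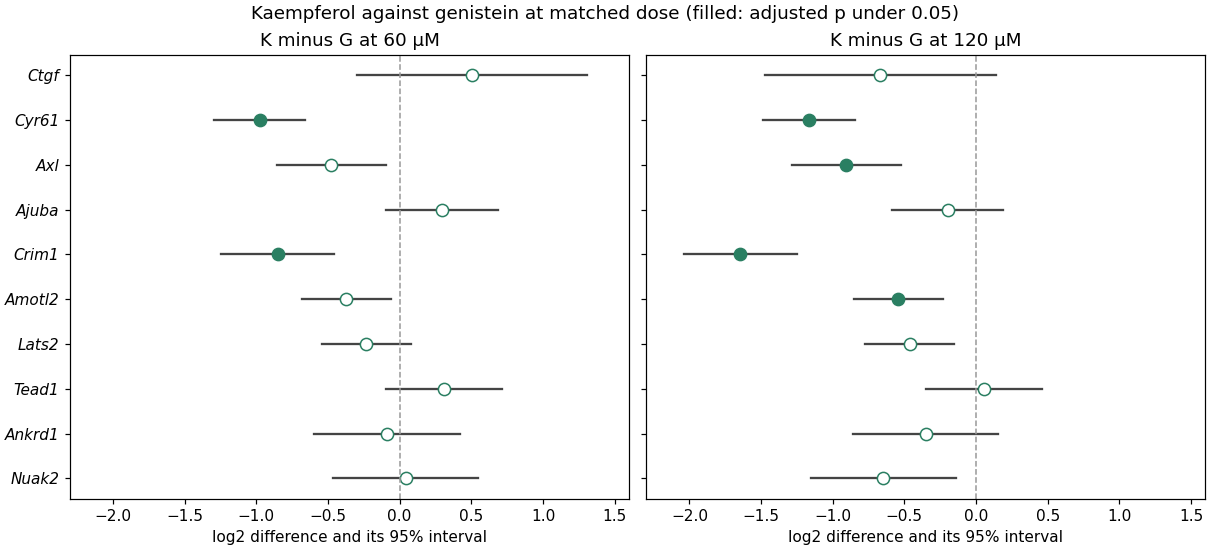
Log2 difference of K minus G (x axis) with its 95% interval for each target gene at 60 and 120 µM, with filled points where the limma adjusted p is under 0.05. Cyr61 and Crim1 lie to the left of 0 at both doses, Axl and Amotl2 pass at 120 µM, and the intervals of Ctgf are the widest.

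The step of 120 over 60 µM changed none of the 10 genes in K (0.27% of clusters changed, 1 of the 10 at an unadjusted p under 0.05) or in the mixture (0.0%, 0 of the 10). The dose step of K minus that of G passed for none (0.0315% of clusters, 2 of the 10 at an unadjusted p under 0.05). By the fold change criterion, without a test, 5 of the 10 passed between the doses of G (15.4% of clusters) and 3 for the difference of dose steps (23.5%).

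Set against G at the same total concentration, both mixtures were lower in Cyr61 and Axl. At 60 µM, Cyr61 (log2 -0.86, limma adjusted p = 0.0038) and Axl (-0.74, adjusted p = 0.0236) were lower in the mixture (3.17% of clusters were lower). At 120 µM, 5 genes were lower in the mixture than in G (2.8% of clusters were lower): Crim1 (-1.19, 0.44-fold, limma adjusted p = 0.0011), Cyr61 (-0.96, adjusted p = 0.00108), Axl (-0.83, adjusted p = 0.00977), Ajuba (-0.83, adjusted p = 0.0119) and Lats2 (-0.56, adjusted p = 0.0294). The 120 µM mixture, which held 60 µM of each flavonoid, was also set against 60 µM G alone, and Cyr61 (-0.81, limma adjusted p = 0.00496) and Axl (-0.81, adjusted p = 0.0142) were lower in the mixture (3.13% of clusters were lower). Against K, none of the 10 passed: 0.0901% of clusters differed between the 60 µM mixture and 60 µM K, 0.684% between the 120 µM mixture and 120 µM K, and 0.455% between the 120 µM mixture and 60 µM K, with 2 of the 10 at an unadjusted p under 0.05 in each. For Ajuba these differences were -0.67 for the 60 µM mixture against 60 µM K (limma adjusted p = 0.263), -0.63 for the 120 µM mixture against 120 µM K (adjusted p = 0.149) and -0.73 for the 120 µM mixture against 60 µM K (adjusted p = 0.122). For Ctgf the last of them was -0.73 (limma adjusted p = 0.548). The 120 µM mixture did not depart from the sum of the 60 µM G and 60 µM K changes in any of the 10 (0.0405% of clusters, 0 of the 10 at an unadjusted p under 0.05), with intervals such as -0.28 to 1.76 for Ankrd1. By the fold change criterion, without a test, 3 of the 10 passed between the 60 µM mixture and 60 µM K (7.35% of clusters), 2 between the 120 µM mixture and 120 µM K (10.5%), 3 between the 120 µM mixture and 60 µM K (8.87%) and 4 for the departure from the sum (35.5%).

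Several of these calls hung on 1 array. Those for Cyr61 at the same total concentration and for Crim1 at 120 µM held without any 1 array. Axl in the 60 µM mixture against 60 µM G was lost without 60 µM G replicate 1 or either mixture array (limma adjusted p up to 0.14), and in the 120 µM mixture against 120 µM G without 120 µM G replicate 1 or 120 µM mixture replicate 1 (up to 0.114). Ajuba was lost without 120 µM G replicate 1 or either 120 µM mixture array (up to 0.114), and Lats2 without any 1 of the 4 (0.106 to 0.157). Against 60 µM G, Cyr61 in the 120 µM mixture was lost without 60 µM G replicate 2 or 120 µM mixture replicate 1 (up to 0.0603), and Axl without 60 µM G replicate 1 or 120 µM mixture replicate 1 (up to 0.126). In a fit of the compared groups alone, Axl in the 60 µM mixture (0.0614), Lats2 in the 120 µM mixture (0.0757) and Axl in the 120 µM mixture against 60 µM G (0.0515) were lost.

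Among the factors that act on these targets, Yap1 did not pass the test in any condition (log2 0.05 to 0.34, limma adjusted p of 0.162 or more). Wwtr1, which encodes TAZ, fell to a log2 change of -0.57 in 120 µM K (limma adjusted p = 0.0108) and was lower in K than in G, at -0.51 for 60 µM (adjusted p = 0.0395) and -0.90 for 120 µM (adjusted p = 0.000988). The Wwtr1 call against DMSO was lost without 120 µM K replicate 1 or either 0.05% DMSO array (up to 0.113). Tead2, a TEAD paralogue, rose in both doses of K (1.21 and 1.46) and both mixtures (1.11 and 1.02), 2.02- to 2.75-fold. The call for Tead2 in 120 µM K held without any 1 array. The others were lost in 60 µM K without 60 µM K replicate 2 or 0.05% DMSO replicate 1 (limma adjusted p up to 0.112), in the 60 µM mixture without its replicate 2 or 0.1% DMSO replicate 2 (up to 0.0889), and in the 120 µM mixture without its replicate 2 or either 0.1% DMSO array (up to 0.119). Tead3 fell to -0.63 in 120 µM K (limma adjusted p = 0.0101) and was -0.75 in K relative to G there (adjusted p = 0.00606). The first of these was lost without 120 µM K replicate 2 or 0.05% DMSO replicate 1 (up to 0.0682). Vgll3, a TEAD cofactor, rose in 60 µM G (0.52), 120 µM G (0.68) and the 120 µM mixture (0.45). Its call for 120 µM G held without any 1 array, and the others were lost without any 1 of their 4 arrays (limma adjusted p 0.053 to 0.185 in 60 µM G and 0.0502 to 0.192 in the mixture). Tead4, Vgll1 and Vgll2 had both arrays at or below the median of the negative controls in all 8 groups. Of the 9 factors in the list, without these 3, the number that rose was 1 in each condition except the 120 µM mixture, where it was 2, and 2 fell in 120 µM K. Of all clusters, 3.84% to 10.1% rose in the conditions and 8.0% fell in 120 µM K.

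In the list of 22 Hippo kinases and regulators, 0 to 3 genes rose and 1 or 2 fell in each condition, where 3.84% to 10.1% of all clusters rose and 4.4% to 9.48% fell, and the median log2 change lay between -0.02 and 0.14. Lats1 passed in none. Map4k4, a kinase that can activate LATS beside MST, rose in 120 µM G (0.46), 60 µM K (1.17), 120 µM K (1.29), the 60 µM mixture (0.81) and the 120 µM mixture (1.10), and was higher in K than in G by 0.88 at 60 µM (limma adjusted p = 0.00201) and 0.83 at 120 µM (adjusted p = 0.00206). Rassf1, a scaffold that binds MST kinases, fell in every condition but 120 µM G, to log2 changes of -0.84 to -1.45, and the call for 60 µM G was lost without 60 µM G replicate 1 or 0.05% DMSO replicate 2 (limma adjusted p up to 0.0816). Wwc2, a relative of the LATS activator Kibra, fell in both doses of K (-0.83 and -0.74) and in the mixtures (-0.80 and -0.68), and was lower in K than in G, at -0.82 for 60 µM (limma adjusted p = 0.0024) and -0.71 for 120 µM (adjusted p = 0.00438). Dchs1, an atypical cadherin upstream of Hippo, rose in the same 4 conditions (1.08, 1.21, 0.73 and 0.73). Its call for 120 µM K held without any 1 array. Those for Dchs1 were lost in 60 µM K without 60 µM K replicate 1 or 0.05% DMSO replicate 2 (limma adjusted p up to 0.133), and in the mixtures without either mixture array or 0.1% DMSO replicate 2 (up to 0.278 at 60 µM and 0.272 at 120 µM). The call for Map4k4 in 120 µM G was lost without any 1 array (0.057 to 0.255). For these further genes, arrays were left out in turn only in the comparisons with DMSO.

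Of 14 further targets of YAP and TEAD, 2 rose in all 6 conditions and 3 to 8 fell. Of all clusters, 3.84% to 10.1% rose and 4.4% to 9.48% fell. The 2 that rose were Gadd45a, a stress-inducible growth arrest gene, at 2.17- to 7.23-fold, and Ptpn14, a phosphatase that binds YAP, at 1.7- to 3.41-fold. Ptpn14 was lower in 120 µM K than in 120 µM G (log2 -0.64, limma adjusted p = 0.0119). Dock5, an exchange factor for Rac, fell in all 6 conditions to between 0.262- and 0.425-fold, and Ccdc80, a secreted matrix protein, fell in 5, with -0.47 in 60 µM K (adjusted p = 0.166). The calls in 60 µM G were lost for Dock5 without 60 µM G replicate 1 or 0.05% DMSO replicate 1 (up to 0.0735) and for Ccdc80 without any 1 of the 4 arrays (0.0571 to 0.172), and in the 60 µM mixture for Ccdc80 without its replicate 1 or 0.1% DMSO replicate 1 (up to 0.0595). Igfbp3 and Nt5e had both arrays at or below the median of the negative controls in all 8 groups and Foxf2 in 6 of them. Without these 3 genes, 2 of 11 fell in 60 µM G (4.48% of all clusters fell) and 6 in 120 µM G (7.8%). In 60 µM K 2 fell (4.4%) and in 120 µM K 5 (8.0%). In the 60 µM mixture 4 fell (8.57%) and in the 120 µM mixture 5 (9.48%). The median log2 change of all 14 lay between -0.63 and -0.31 in the 6 conditions, and between -0.35 and -0.20 without the genes at background in both groups compared, where 120 µM G was at -0.20 (against -0.50 for all 14) and the 120 µM mixture at -0.28 (against -0.63).

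**Figure D5:**
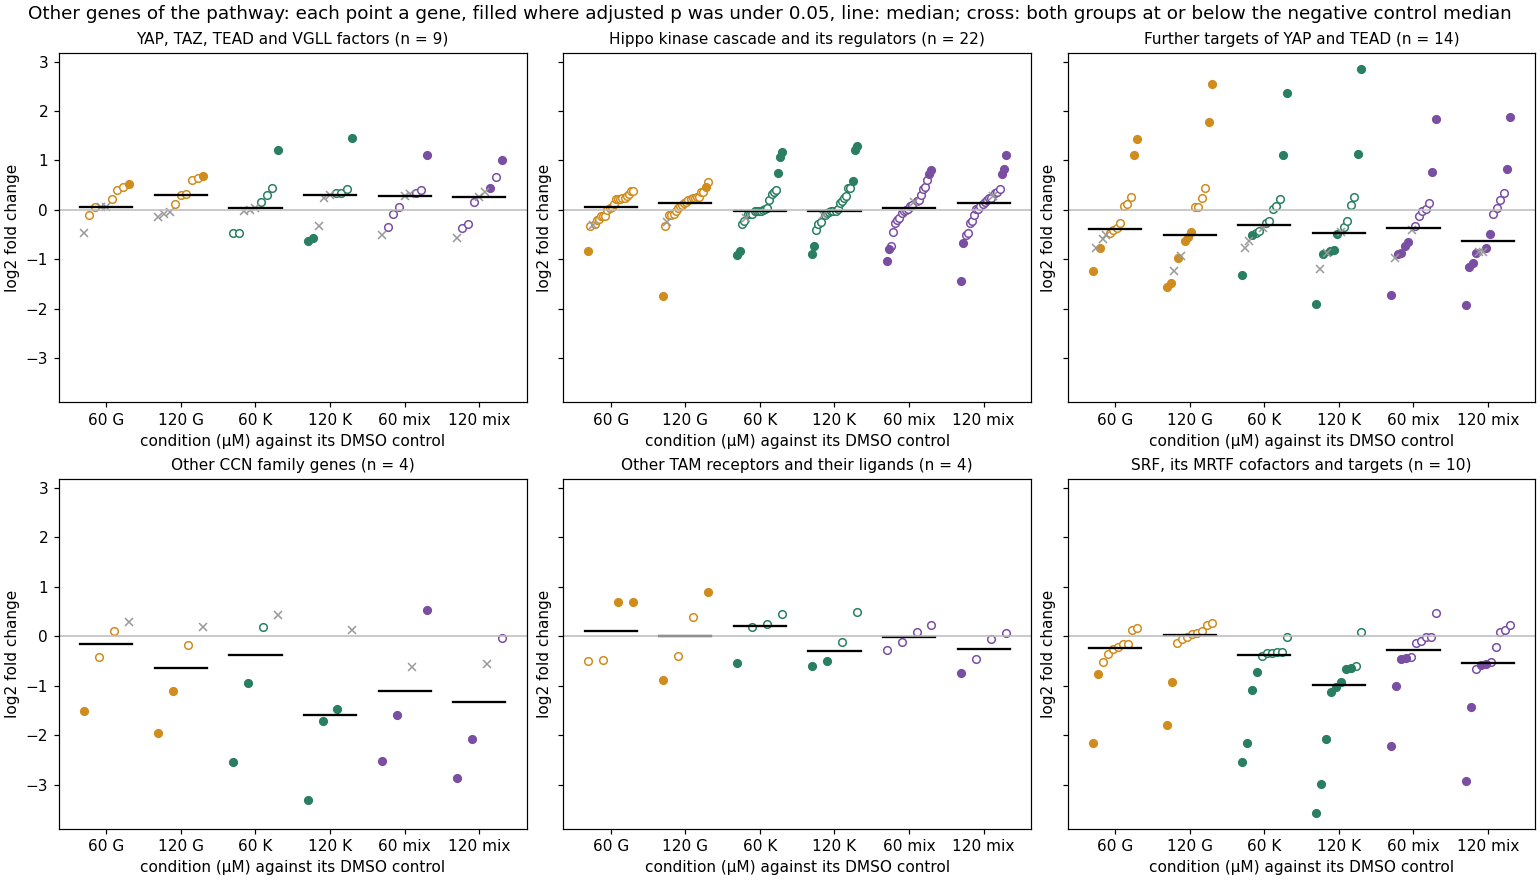
Log2 change against DMSO (y axis) of every gene in 6 lists around YAP and TEAD in the 6 conditions, with filled points where the limma adjusted p is under 0.05, lines at the medians and grey crosses where both groups lie at or below the median of the negative controls. Gadd45a and Ptpn14 stand above 0 in all 6 conditions, and the SRF list has 8 filled points below 0 in 120 µM K.

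In the CCN family, to which Ctgf and Cyr61 belong, Wisp1 fell in all 6 conditions (log2 -0.94 to -2.08) and Nov in 5, with -1.10 in 120 µM G, -2.54 in 60 µM K, -3.31 in 120 µM K, -2.52 in the 60 µM mixture and -2.87 in the 120 µM mixture, and with -0.41 in 60 µM G (limma adjusted p = 0.162). Nov was lower in K than in G, at -2.13 for 60 µM (limma adjusted p = 6.34e-06) and -2.21 for 120 µM (adjusted p = 3.06e-06). Wisp2 fell to 0.307-fold in 120 µM K and rose in the 60 µM mixture (0.54, limma adjusted p = 0.0209, lost without any 1 array, 0.0658 to 0.127). The call for Wisp1 in 60 µM K was likewise lost without any 1 array (0.0522 to 0.0856). Wisp3 had both arrays at or below the median of the negative controls in all 8 groups.

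In the TAM family of Axl, Mertk fell in 120 µM G, 60 µM K and 120 µM K (log2 -0.88, -0.54 and -0.61, in that order) and was at least 1.43-fold lower in the 120 µM mixture, where both arrays were not well above background (limma adjusted p = 0.00272). Mertk was dim, with a mean log2 signal of 7.28 in 0.1% DMSO and 6.53 in the 120 µM mixture, below the upper limit of background. Gas6, the ligand of Axl, rose in 60 µM G (0.70, limma adjusted p = 0.00927) and fell in 120 µM K (-0.49, adjusted p = 0.0331), and was lower in K than in G, at -0.51 for 60 µM (adjusted p = 0.0478) and -0.89 at 120 µM (adjusted p = 0.00143). Pros1, the other TAM ligand, rose in 60 µM G (0.69) and 120 µM G (0.90). Lost without any 1 array were the calls for Mertk in 60 µM K (limma adjusted p 0.0985 to 0.175), Gas6 in 120 µM K (0.0512 to 0.178) and Pros1 in 60 µM G (0.0529 to 0.135). Mertk in 120 µM K was lost without its replicate 1 or 0.05% DMSO replicate 1 (up to 0.0745), and Gas6 in 60 µM G without its replicate 1 or 0.05% DMSO replicate 1 (up to 0.0753).

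SRF and its MRTF cofactors answer to actin and share targets with YAP. Of 10 genes of that list, 2 fell in each dose of G, 4 in 60 µM K, 8 in 120 µM K and 4 in each mixture, and none rose, while 4.4% to 9.48% of all clusters fell in these conditions (8.0% in 120 µM K). At 120 µM, 8 were lower in K than in G, where 4.57% of all clusters were lower: Srf, Mkl1, Acta2, Tagln, Cnn1, Myl9, Vcl and Tpm1. Tagln, an actin-binding protein of contractile cells, fell in 60 µM K (log2 -2.15), 120 µM K (-2.98), the 60 µM mixture (-1.01) and the 120 µM mixture (-1.42), and was lower in K than in G, at -1.99 for 60 µM and -3.09 for 120 µM. Fhl2, a LIM protein that binds integrins and SRF, fell in 120 µM G (-0.93), 120 µM K (-1.03), the 60 µM mixture (-0.44) and the 120 µM mixture (-0.55). Srf itself fell in 60 µM G and both doses of K. Cnn1, which encodes calponin, fell in all 6 conditions, and was at least 7-fold lower in 120 µM K and at least 6.31-fold lower in the 120 µM mixture than in DMSO, since both arrays of these treated groups were at or below the median of the negative controls. Cnn1 was dim in the controls too, with a mean log2 signal of 9.49 in 0.05% DMSO and 9.42 in 0.1% DMSO, below the upper limit of background. Single arrays ended the calls for Tagln in the 60 µM mixture (0.1% DMSO replicate 2, limma adjusted p 0.0528), Cnn1 in 120 µM G (its replicate 2, 0.0636), Fhl2 in the 60 µM mixture (any of 4, up to 0.171) and the 120 µM mixture (its replicate 2 or 0.1% DMSO replicate 2, up to 0.0967), and Srf in 60 µM G (its replicate 2 or either DMSO array, up to 0.166) and 60 µM K (any of 4, up to 0.132). The bounds for Cnn1 set the mean of DMSO against, per array, the higher of that median and the signal of Cnn1. Several of these genes are also made by smooth muscle cells and pericytes, whose summed marker signal was lower on treated arrays as given above. Among those markers Smtn fell in every condition but 60 µM K and Cspg4 in 120 µM G only, while Myh11, Des and Rgs5 were at background. In 60 µM K, where 4 genes of the SRF list fell, none of these markers passed the test.

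Over the 16 arrays, which share treatments and controls, several targets varied together. Pearson's r was 0.864 between Ctgf and Ajuba, 0.838 between Ctgf and Axl, 0.888 between Cyr61 and Axl and 0.776 between Axl and Ajuba. With Ctgf it was 0.663 for Cyr61, and 0.746 and 0.73 for Ankrd1 and Nuak2, which passed the test in no condition. It was 0.775 between Amotl2 and Lats2, 0.793 between Amotl2 and Crim1 and 0.747 between Lats2 and Crim1. Between the 4 genes that fell (Ctgf, Cyr61, Axl, Ajuba) and the 3 that rose in 120 µM G, r ran from -0.375 (Ctgf and Amotl2) to 0.606 (Cyr61 and Crim1), so that Cyr61 was as close to Crim1 as to Ajuba (0.581). Tead1 ran opposite to Axl (-0.626). Among all clusters, the genes most like Ctgf, the target with the widest range, were Srsf9 (r = 0.943), Wdr43 (0.941) and Dok1 (0.94). These values describe the arrays and carry no test. The genes that fell and those that rose were grouped by calls on these same arrays, so r within a group is not separate evidence.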

How the data were processed

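RNA of the 16 cultures was hybridised to Clariom S mouse arrays. The authors processed the scans with Affymetrix Expression Console, RMA and Transcriptome Analysis Console, per the labels, and the deposited values are log2 signals, 1 per probe set, named sst-rma in the workbook; neither versions nor a genome build is given in those sources. Of 28846 probe sets, 6640 are controls (5222 negative), and the remaining 22206 are annotated transcript clusters. The workbook and the series matrix differed by at most 5e-05. The number of arrays limits the precision: with 2 per group, the median standard error was 0.187 and the half-width of its 95% interval 0.402 (log2).

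Groups came from the sample labels. The labels name 0.05% DMSO for all treatments, while the methods set G and K against 0.05% DMSO and the mixtures against 0.1% DMSO, which was followed. Differences were tested with limma 3.58.1 (R 4.3.3) in a fit of all 16 arrays with a mean for each group and 8 residual and 5.81 prior degrees of freedom. P-values were adjusted by Benjamini-Hochberg over all 22206 clusters, in 20 comparisons. Where neither array of a group exceeded the median of the negative controls, the group was taken as not well above background. No fold is given where both groups were so, and a bound where 1 was. The member genes, the 6 further lists (63 genes), the markers and the tests were chosen with earlier results of these data known. The genes named are the 10 members, up to 4 per further list (those called in the most conditions, ties by size of change) and the 3 most correlated with Ctgf; Yap1, Lats1, the dim genes and the 8 SRF genes lower in 120 µM K were named after their values were seen. In simulated data for 60 µM G (22206 clusters), the fit called 0, 8, 27 and 50 of 50 genes changed by folds of 1.3, 1.5, 2 and 4, with 4 false calls. No other cluster was changed there, whereas 4.48% of clusters fell and 3.84% rose in the real 60 µM G data. The adjusted threshold was thus stricter in the simulation, so its counts do not give the recovery in the real data. Alternatives covered normalization, centring, filter, prior, controls, the set of groups and the replicate number. Motifs were searched as exact letters on both strands in RefSeq promoters of GRCm38.p6, and all 10 members matched RefSeq genes, whose spans are those printed. Same-numbered arrays of different groups correlated at -0.136 to 0.142 after subtraction of group means (28 pairs of groups).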

Additional observations from a re-analysis of the deposited data

Results flagged for a closer look

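At both doses for Crim1, and at 120 µM for Cyr61, every array of K lay on the other side of the 0.05% DMSO mean than every array of G, and the difference between K and G passed the test itself (limma, adjusted over all clusters). For Crim1 at 60 µM, both K arrays lay below and both G arrays above 0.05% DMSO, with K minus G at -0.852. Neither G nor K alone differed from DMSO there (limma adjusted p = 0.106 and 0.307). For Crim1 at 120 µM the arrays lay on the same sides, with K minus G at -1.644, although K alone did not differ from DMSO (limma adjusted p = 0.192). For Cyr61 at 120 µM, both K arrays lay below, and both G arrays slightly above, 0.05% DMSO, with K minus G at -1.165, although G alone did not differ from DMSO by the test.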

How the results depend on the processing

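The 37 calls among the 10 genes were recomputed without each array and under other settings, which changed the normalization, filter, prior or set of groups for all 37, the control to 0.1% DMSO for 12 and the control to both DMSO groups pooled for 21. Fitting the replicate number as a block lost 0 of 37 and gained 0, and with correlations of -0.136 to 0.142 between same-numbered arrays the numbers were not taken as pairs. Against the 2 members called in 60 µM G, 5 were called among the brighter clusters, 5 with a variance trend, 5 with both DMSO controls pooled, 1 in a fit of the compared groups alone and 7 by the fold change criterion of the study (above 1.3 or below 0.7, no test). In 120 µM G a fit of the compared groups gave 2 against 4, in 60 µM K the fold criterion gave 5 against 3, and in 120 µM K the brighter clusters and the fold criterion gave 5 each against 3. For 120 over 60 µM G (1 call), the trend gave 2, the compared groups 0 and the fold criterion 5. For K against G, the trend gave 4 against 2 at 60 µM and the compared groups 2 against 4 at 120 µM. For the 60 µM mixture against 60 µM G, and for the 120 µM mixture against 60 µM G, the compared groups gave 1 against 2. Where none was called, the fold criterion gave 3 for the 60 µM mixture against 60 µM K, 2 for the 120 µM mixture against 120 µM K, 3 for it against 60 µM K, 4 for the departure from the sum and 3 for the difference of dose steps. There the trend gave 1 against 120 µM K and 1 against 60 µM K, and the brighter clusters 1 against 60 µM K. Of the 63 further pathway genes, 12 were called in 60 µM G, and 7 in a fit of the compared groups.

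Without 1 array, the number of the 10 genes called was 0 to 1 in 60 µM G, 2 to 4 in 120 µM G, 2 in 60 µM K, 2 to 3 in 120 µM K, 4 to 5 in the 60 µM mixture, 4 to 6 in the 120 µM mixture, 0 to 1 for 120 over 60 µM G, 1 to 2 and 2 to 4 for K against G at 60 and 120 µM, 1 to 2 and 2 to 5 for the mixture against G at 60 and 120 µM, and 0 to 2 for the 120 µM mixture against 60 µM G. Of the further pathway genes it was 5 to 8 in 60 µM G, 14 to 17 in 120 µM G, 11 to 12 in 60 µM K, 23 to 28 in 120 µM K, 13 to 19 in the 60 µM mixture and 16 to 22 in the 120 µM mixture, against 12, 19, 19, 30, 20 and 25 with all arrays. In all, 19 of the 37 calls were kept without any 1 array.

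The values that changed sign were uncalled ones near 0. Against 0.1% DMSO, Cyr61 in 120 µM G was -0.017, and Tead1 was 0.33 in 60 µM G, 0.31 in 120 µM G and 0.36 in 120 µM K. With pooled controls Tead1 was 0.14, 0.12 and 0.17, and centring put it at 0.003 in 120 µM K. Nuak2 in 120 µM G was 0.019 after quantile normalization and 0.031 after centring. Without 1 array, the ranges were -0.48 to 0.48 for Nuak2 in 120 µM G, -0.24 to 0.15, -0.29 to 0.16 and -0.086 to 0.058 for Tead1 in 60 µM G, 120 µM G and 120 µM K, -0.25 to 0.04 for Cyr61 in 60 µM G, -0.11 to 0.22 and -0.025 to 0.30 for Amotl2 in 60 and 120 µM K, -0.048 to 0.12 for Lats2 in 60 µM K, and -0.12 to 0.39 and -0.15 to 0.36 for Crim1 in the 60 and 120 µM mixtures. For K minus G they were -0.25 to 0.074 for Ankrd1 and -0.072 to 0.16 for Nuak2 at 60 µM, and -0.41 to 0.015 for Ajuba and -0.17 to 0.28 for Tead1 at 120 µM. A change of control moves a difference by the gap between the control means. For Tead1 these means were 12.88 in 0.1% DMSO and 13.26 in 0.05% DMSO (log2). Causes of the other sign changes were not tested. With 2 arrays per group the half-width of the interval at the median standard error was 0.402 on the log2 scale, and the signals of Ankrd1 and Nuak2 lay within the range of the negative controls.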
